A study of Mus musculus with 20 samples.

Results

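Interferon-stimulated genes are switched on when a cell senses interferon, and 44 of them were followed through splenic follicular T cells of the mouse. They were named as a list of known interferon-inducible genes together with genes that mark a small cluster of the same cells, and all 44 were among the 13798 genes of the deposited single-cell matrix. The matrix held 28192 cells sorted as CD4+CXCR5+PD-1+ from 10 bone marrow chimeras, each cell carrying 1 of the 6 cluster names given by the authors. The Tfh-ISG cluster, named for interferon-stimulated genes, held 379 cells (1.34%), and the 27813 other cells belonged to the Tfh-activated, Tfr, Sostdc1, Tfh-CM and Tfh-effector clusters.

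All recipients were irradiated C57BL/6 mice. The WT chimeras (mice 11, 12, 14, 23 and 36, 14965 cells) received congenic WT marrow and were immunized with NP-OVA in alum at week 6, and the study's methods also list a booster of NP-OVA 4 weeks later. They were 2 female and 3 male mice. The 564Igi chimeras (mice 13, 17, 21, 24 and 34, 13227 cells) received WT marrow mixed with 564Igi marrow, whose B cells carry a knocked-in heavy and light chain of an autoreactive receptor, and were not immunized. They were 3 female and 2 male mice. Mice of both groups were killed 10 weeks after irradiation. Immunization and marrow differ together, so their parts in any difference between groups cannot be told apart. The authors normalized the cells of each condition separately, which also cannot be told apart from the condition. The T cell receptor libraries of the same mice were not analysed here.

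Depth ranged from 3424280 to 15241983 raw UMIs (unique molecular identifiers, each marking 1 captured RNA molecule) per mouse, and from a median of 2728 UMIs per cell in 564Igi mouse 24 to 4375.5 in 564Igi mouse 17. The lowest median among WT mice was 2937.5, in mouse 12. Of all cell barcodes, 1.77% were seen in more than 1 library. The labelled cell type held in both conditions: outside Tfh-ISG, 99.4% of WT cells and 99.5% of 564Igi cells held *Cd3e*, 73.6% and 77.8% held *Pdcd1*, and 41.2% and 40.5% held *Cxcr5*. Of the B cell genes, which T cells should lack, *Cd79a* was found in 0.222% and 0.268% of these cells and *Ms4a1* in 0.0438% and 0.0620%, while *Cd79b* was found in 3.95% and 3.07% and *Cd22* in 4.04% and 4.68%.

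Type I interferons bind the receptor made of IFNAR1 and IFNAR2, whose kinases JAK1 and TYK2 activate transcription factors, STAT2 among them. A complex that holds STAT2 and IRF9 binds the interferon-stimulated response element (ISRE) in target promoters, while interferon-gamma acts through a different, palindromic element (GAS). The products block viral RNA, protein or budding at many steps, and some of them, such as IRF7 and USP18, feed back on the pathway itself.

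The ISRE core, searched as GAAA and GAAA with any 2 bases between them, on both strands, marked the promoters of many of these genes. RefSeq promoters of GRCm38.p6, from 250 bases before to 50 bases after each start, were matched by symbol for 37 members, with no entry used for *Mx1*, *Rtp4*, *Ifi27l2a*, *Usp18*, *Parp14*, *Parp9* and *Zbp1*. The letters were present for 23 of the 37 genes, or in 51.0% of the members' promoters, against 3.44% of all 32851 promoters. The GAS core, TTC and GAA with any 3 bases between them, which reads the same on both strands, was present in 14.3% of the members' promoters and 8.30% of all promoters. The 2 motifs overlapped in *Bst2* and *Shisa5*.

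The 200 bases before the start are shown for 7 members on which the results turn, read 5′ to 3′ on the gene's own strand with the ISRE letters in capitals (a match on the other strand reads TTTC, any 2 bases, TTTC). *Ifit1* lies at chr19:34640689-34640888 (plus strand), *Ifit3* at chr19:34583329-34583528 (plus strand) and *Ifit3b* at chr19:34607757-34607956 (plus strand); these 3 were the genes most confined to Tfh-ISG cells. *Isg15* lies at chr4:156200819-156201018 (minus strand) and had the largest log2 difference between Tfh-ISG and other cells. *Ifi213* at chr1:173599273-173599472 (minus strand), *Ifi214* at chr1:173535958-173536157 (minus strand) and *Ifi209* at chr1:173630659-173630858 (plus strand) were the 3 Ifi200 genes with the lowest unadjusted p between conditions.
Ifit1: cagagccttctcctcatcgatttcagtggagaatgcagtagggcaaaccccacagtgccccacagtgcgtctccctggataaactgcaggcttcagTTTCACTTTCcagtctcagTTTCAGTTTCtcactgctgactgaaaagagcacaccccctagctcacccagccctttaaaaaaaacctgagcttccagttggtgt
Ifit3: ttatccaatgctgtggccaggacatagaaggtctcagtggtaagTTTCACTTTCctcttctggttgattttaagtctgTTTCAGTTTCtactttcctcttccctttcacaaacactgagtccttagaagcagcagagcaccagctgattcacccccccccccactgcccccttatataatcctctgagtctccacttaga
Ifit3b: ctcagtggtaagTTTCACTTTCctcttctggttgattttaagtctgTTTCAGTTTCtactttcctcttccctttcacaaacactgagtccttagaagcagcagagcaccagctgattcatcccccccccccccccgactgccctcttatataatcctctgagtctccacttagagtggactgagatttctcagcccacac
Isg15: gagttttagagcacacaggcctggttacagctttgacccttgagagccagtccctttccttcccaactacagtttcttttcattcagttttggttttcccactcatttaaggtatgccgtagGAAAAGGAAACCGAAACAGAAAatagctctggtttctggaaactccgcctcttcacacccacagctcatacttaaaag
Ifi213: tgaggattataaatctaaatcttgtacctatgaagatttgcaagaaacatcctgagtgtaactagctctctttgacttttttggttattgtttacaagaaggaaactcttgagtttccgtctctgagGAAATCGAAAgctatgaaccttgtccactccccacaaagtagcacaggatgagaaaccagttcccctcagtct
Ifi214: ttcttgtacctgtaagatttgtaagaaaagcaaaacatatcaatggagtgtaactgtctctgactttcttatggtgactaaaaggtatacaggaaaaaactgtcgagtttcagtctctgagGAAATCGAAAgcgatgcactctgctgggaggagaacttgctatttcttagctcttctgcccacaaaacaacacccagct
Ifi209: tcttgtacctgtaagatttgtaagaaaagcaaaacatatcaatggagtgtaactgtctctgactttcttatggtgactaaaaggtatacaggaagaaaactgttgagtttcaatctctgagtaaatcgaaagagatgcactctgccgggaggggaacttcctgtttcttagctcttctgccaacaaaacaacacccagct
*Ifit1*, *Ifit3* and *Ifit3b* each held a pair of matches, the outer at 104, 156 and 188 bases before the start. *Isg15* held 3 overlapping matches between 78 and 57 bases before its start. The letters GAAATCGAAA stood in promoters of 4 of the 5 Ifi200 members (*Ifi203*, *Ifi206*, *Ifi213* and *Ifi214*). The printed stretch of *Ifi209* held no match in these letters. Matches are a description of letters, not of bound sites.

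Every one of the 44 genes was higher in Tfh-ISG cells than in the rest of that mouse's cells, in all 8 mice with at least 20 Tfh-ISG cells (4 WT, 4 564Igi). The cluster was built from these same values, so the contrast is described here and not tested. What differed among the genes was how much of their expression lay in other cells. A gene was called restricted when it was found (at least 1 corrected count) in under 10% of the other cells with a linear fold of at least 4, raised on a broad base at 10% or more with a fold of at least 2, and broad under a fold of 2. By these limits 14 genes were restricted, 29 were raised on a broad base and 1 was broad. *Herc6*, at 9.97% of other cells, lay just inside the limit, and *Slfn8*, at 12.6%, just outside it.

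Antiviral effectors held both extremes. *Ifit3* (chromosome 19, 34583531 to 34588731), whose product works with IFIT1 in binding viral RNA, was found in 60.0%, 82.4%, 73.7% and 65.4% of Tfh-ISG cells of WT mice 11, 14, 23 and 36, and in 53.6%, 65.1%, 65.7% and 73.5% of those of 564Igi mice 13, 17, 21 and 34. In the other cells of the 10 mice it was found in 0.272% to 1.83%, and the ranges were far apart. Its mean count was 215-fold higher in Tfh-ISG cells, and 76.0% of all its counts came from that 1.34% of cells. *Ifit3b*, a near-identical neighbour with which reads may be shared, had a fold of 167 and 71.6% of its counts there. *Ifit1*, which binds RNA lacking cap methylation, was found in 89.4% ± 5.54 of Tfh-ISG cells (SD, n = 8 mice) and 5.22% ± 1.38 of the others (n = 10 mice), a fold of 66.8 with 48.9% of its counts in the cluster. What share of the counts in other cells was free RNA was not tested.

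*Rsad2*, which encodes viperin, had a fold of 47.8, *Mx1*, a gene of a GTPase family, 38.2, *Cmpk2*, a nucleotide kinase next to *Rsad2*, 27.4, and *Oasl2*, an oligoadenylate synthetase relative, 26.0. All 4 were found in 2.11% to 2.65% of other cells. *Trim30d* was restricted as well, with a fold of 6.21 and 8.22% of other cells.

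The remaining effectors rose from a broad base. *Bst2*, the tetherin that holds budding virus at the membrane, was found in 88.9% ± 6.92 of Tfh-ISG cells and 25.1% ± 3.07 of the others, and its log2 level, the mean of log2(corrected count + 1) over cells, was higher by 1.62 ± 0.27. *Isg20*, an RNA exonuclease, and *Rtp4*, a receptor transporter, differed by 1.35 ± 0.20 and 1.29 ± 0.06. *Samd9l*, at 0.37 ± 0.12, had one of the smallest differences of all members. *Ifi27l2a* was found in 95.6% of other cells and still differed by 1.95 ± 0.15, a 3.36-fold higher count. *Shisa5*, an interferon- and p53-inducible membrane protein, was the broad gene, found in 98.8% of other cells with a fold of 1.61.

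Among ISG15 and ADP-ribosyl modifiers, *Isg15* itself, a ubiquitin-like protein coupled to other proteins, had the largest log2 difference of the 44 genes. Its log2 level in Tfh-ISG cells was 2.82, 3.08, 3.29 and 3.09 in WT mice 11, 14, 23 and 36, and 3.23, 3.07, 3.17 and 3.24 in 564Igi mice 13, 17, 21 and 34. In the other cells of all 10 mice it lay between 0.27 and 0.48, so no mouse came near its own Tfh-ISG level. *Isg15* was nonetheless found in 29.3% ± 4.73 of the other cells, which kept it out of the restricted group. *Usp18*, the protease that removes ISG15, had a fold of 27.9 and was found in 4.82% of other cells. *Herc6*, an ISG15 ligase, had a fold of 7.19, and *Parp9*, *Parp14* and *Dtx3l* lay between 3.83 and 5.19.

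Of the signal factors, *Irf7*, the transcription factor that amplifies interferon production, differed by 1.48 ± 0.15 and *Stat2* was restricted, in 8.82% of other cells with a fold of 6.13. *Irf9*, the DNA-binding partner of STAT2, had the smallest fold of the genes raised on a broad base, 2.35, with a log2 difference of 0.36 ± 0.14. *Daxx* had a fold of 5.81. The sensors *Ifih1* (MDA5), *Zbp1*, *Eif2ak2* (PKR) and *Ddx58* (RIG-I) had folds of 7.33, 7.21, 5.40 and 5.18.

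The Ifi200 family, PYHIN proteins encoded side by side on chromosome 1, split. *Ifi213*, *Ifi214* and *Ifi206* were restricted, with folds of 13.4, 9.98 and 9.22, while *Ifi209* and *Ifi203* were found in 15.1% and 40.1% of other cells. *Ifi214* had the smallest log2 difference of all, 0.15 ± 0.08, and was found in 15.1% of Tfh-ISG cells. The genes of this family resemble one another closely, so the split of reads between them is uncertain, as it is for *Trim30a* and *Trim30d* and for the Schlafen and Gbp genes. *Slfn1* and *Ifi203* differed by 1.38 ± 0.11 and 1.40 ± 0.14. The GTPases, which act on membranes of intracellular pathogens, were all raised on a broad base, from *Irgm1* at a fold of 5.25 to *Gbp2* at 4.23, and *Ifi47* was found in 41.0% of other cells.

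The 14 restricted genes were chosen for being found in few other cells, so low counts of them there follow from that choice. The median Tfh-ISG cell held 7 of the 14 restricted genes and 29 of all 44, and the median other cell held 8 of the 44. Of the other cells, 58.1% held 0 restricted genes, 1170 held 3 or more, and 26 (0.0935%) reached 7. In the cluster, 16 of 379 cells held fewer than 3. Median depth was 3893 UMIs in Tfh-ISG cells and 3461 to 4027 in the 5 other clusters.

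Outside Tfh-ISG, the genes did not share 1 order of clusters. The highest mean level fell in Tfr cells for 17 genes, in Tfh-CM for 12, in Tfh-effector for 10, in Sostdc1 for 3 and in Tfh-activated for 2, and the lowest in Sostdc1 for 19. Between the 2 largest clusters, 9 genes were higher in Tfr than in Tfh-activated cells in 10 of 10 mice: *Isg15*, *Isg20*, *Igtp*, *Parp14*, *Shisa5*, *Gbp7*, *Eif2ak2*, *Slfn8* and *Irf9*. That was 21.4% of the 42 members found in at least 1% of cells in both clusters in 5 or more mice, against 12.4% of all 9682 such genes. *Isg15* was found in 34.4% of Tfr and 26.6% of Tfh-activated cells, a log2 difference of 0.12 ± 0.03 (SD, n = 10), and *Slfn8* in 18.3% and 8.79%. *Slfn1*, a Schlafen linked to T cell quiescence, ran the other way in 10 of 10 mice, with 21.6% of Tfr and 37.3% of Tfh-activated cells. It was the 1 member of 42 to do so (2.38%), against 6.97% of all 9682 genes.

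The small clusters had profiles of their own. *Ifi213*, *Ifi206*, *Ifi209* and *Ifi214* were highest in Tfh-CM cells, where *Ifi209* was found in 29.5% of cells and *Ifi214* in 7.26%. *Ifi27l2a* was lowest there, at 65.0% of cells against 97.3% in Tfr. *Isg15* was also lowest in Tfh-CM, at 16.0%. *Gbp7* and *Ifi203* were highest in Tfh-effector cells, at 33.0% and 56.0%. Tfh-CM levels rest on 725 cells and Tfh-effector levels on 682, and clusters were again not tested against each other.

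**Figure D1:**
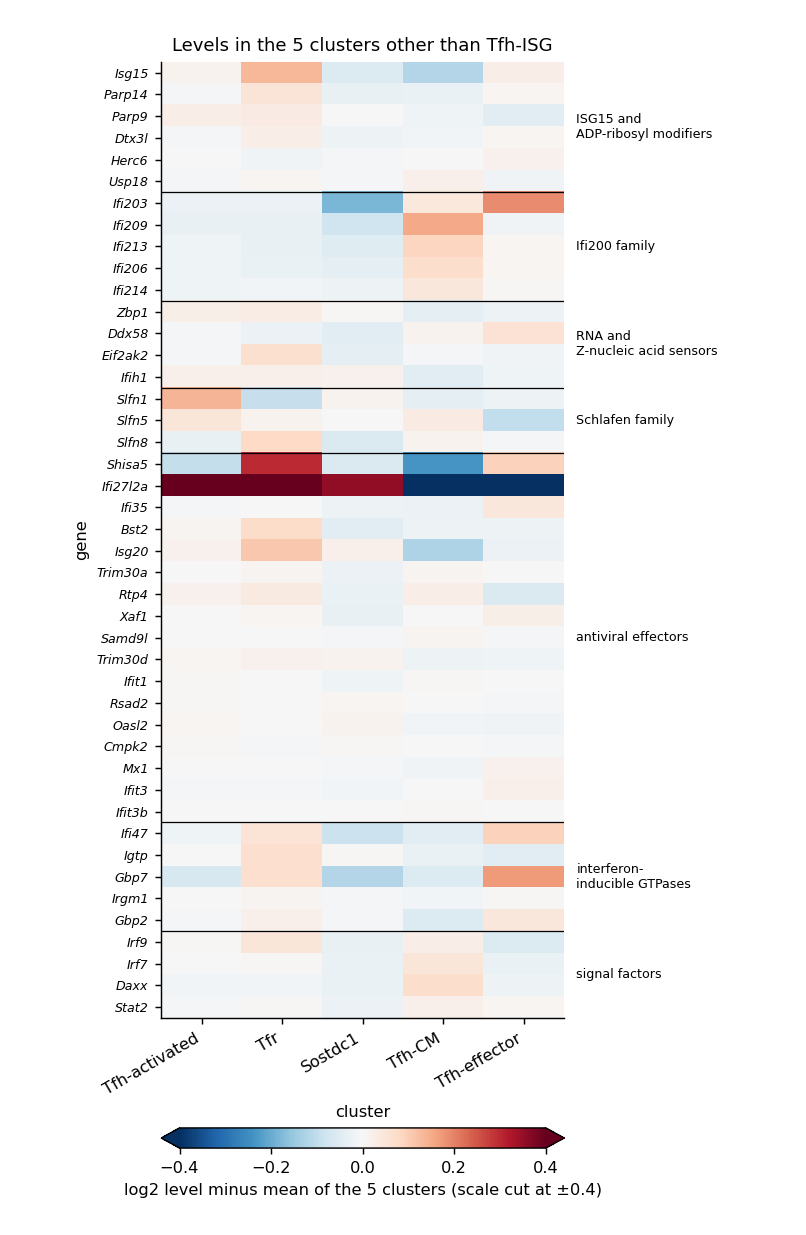
Mean log2 level of the 44 genes in the 5 clusters other than Tfh-ISG, each minus the gene's mean over those 5 clusters, with the colour scale ending at ±0.4; genes are grouped by role. The Tfr column is red for *Isg15*, *Isg20* and *Shisa5*, the Tfh-CM column is red for 4 Ifi200 genes and blue for *Ifi27l2a*, and the restricted effectors are near white in every column.

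The question of whether cells outside Tfh-ISG carried more of these transcripts in autoimmune chimeras was asked with limma on the mean log2 level per mouse. Of 9973 genes tested, 1 passed an adjusted p under 0.01 with a log2 change above 0.2 (0.01%), the non-coding *Gm42031*, which is not a member. Of the 44 members 43 were tested, *Ifit3b* falling below the filter on low genes, and 0 were called. All 43 differences were under 0.1 on the log2 scale, from -0.04 for *Slfn5* to 0.07 for *Ifi47*. The mean was higher in 564Igi for 21 members and lower for 22, with a median of -0.0020 against -0.0018 for all genes tested, of which 38.4% had a higher mean. A log2 change on this scale understates the relative change of genes found in few cells. The restricted members tested had mean levels outside Tfh-ISG from 0.0098 (*Ifit3*) to 0.10 (*Herc6*). None of them could fall by 0.2, and a rise of 0.2 would exceed their whole level. For these genes the lack of a call therefore says little.

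At an unadjusted p under 0.05 limma counted 5 of the 43 members (11.6%) against 3.22% of all genes tested. *Mx1* was higher in 564Igi (1 member, 2.33%, against 1.46% of all genes), and *Ifi214*, *Ifi213*, *Ifi209* and *Slfn8* were lower (4 members, 9.30%, against 1.75%). Leaving out 1 mouse at a time moved this count between 2 and 9, while that of all genes ranged from 194 to 511. The member count was 1 for limma without the trend and with equal weights given to the Tfh-activated, Tfr and Sostdc1 clusters. All genes at that limit were then 193 and 331, against 321 with all mice. With all mice, none of the 5 members had an adjusted p below 0.849.

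All 5 Ifi200 genes had a lower mean in 564Igi, where 38.4% of all genes had a higher one, but *Ifi203* turned to 0.0096 without mouse 11. *Ifi214* was found in 3.47%, 1.72%, 1.40%, 1.93% and 1.89% of the other cells of WT mice 11, 12, 14, 23 and 36, and in 1.13%, 1.24%, 0.746%, 0.996% and 1.44% of those of 564Igi mice 13, 17, 21, 24 and 34. By log2 level, every 564Igi mouse lay below every WT mouse, and mouse 11 stood well above the other WT mice. The difference in log2 level was -0.010 (standard error 0.0032, limma adjusted p = 0.849), and -0.0064 without mouse 11. *Ifi209* had log2 levels of 0.24, 0.16, 0.16, 0.17 and 0.17 in the same WT mice and 0.15, 0.15, 0.14, 0.14 and 0.14 in the 564Igi mice. Again the groups did not overlap and mouse 11 was the highest. Its difference was -0.036 (standard error 0.016, limma adjusted p = 0.9998), and -0.021 without mouse 11. Groups without overlap and lower in 564Igi were found for these 2 of 43 members and for 0.17% of all genes tested, and for 0 members in the other direction, against 0.271%. Both genes were highest in Tfh-CM cells, which numbered 185, 62, 42, 176 and 95 in WT mice 11, 12, 14, 23 and 36 and 21, 83, 19, 29 and 13 in 564Igi mice 13, 17, 21, 24 and 34. With equal weights given to the Tfh-activated, Tfr and Sostdc1 clusters and no Tfh-CM or Tfh-effector cells, 0 members were free of overlap. Of 9973 genes 24 were then lower and 30 higher without overlap. The differences were -0.0072 for *Ifi214* and -0.028 for *Ifi209*. Weights and clusters changed together there, and the part of Tfh-CM cells was not tested. Levels of both groups come from separate normalizations.

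*Ifi213* had log2 levels of 0.11, 0.060, 0.064, 0.073 and 0.060 in WT and 0.042, 0.065, 0.054, 0.042 and 0.064 in 564Igi mice. These overlapped, with mouse 11 again highest, and the difference was -0.021 (standard error 0.0093, limma adjusted p = 0.9998), or -0.011 without mouse 11. *Ifi203* and *Ifi206* differed by -0.04 and -0.013. All 3 Schlafen genes had lower means in 564Igi as well (38.4% of all genes had a higher one). *Slfn8* had log2 levels of 0.21, 0.18, 0.13, 0.13 and 0.12 in WT and 0.13, 0.12, 0.11, 0.13 and 0.09 in 564Igi mice, which overlapped, and differed by -0.036 (limma adjusted p = 0.9998), or -0.023 without mouse 11. *Slfn5* had the lowest difference of all members, -0.04 (standard error 0.02), which was -0.014 without mouse 11.

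**Figure D2:**
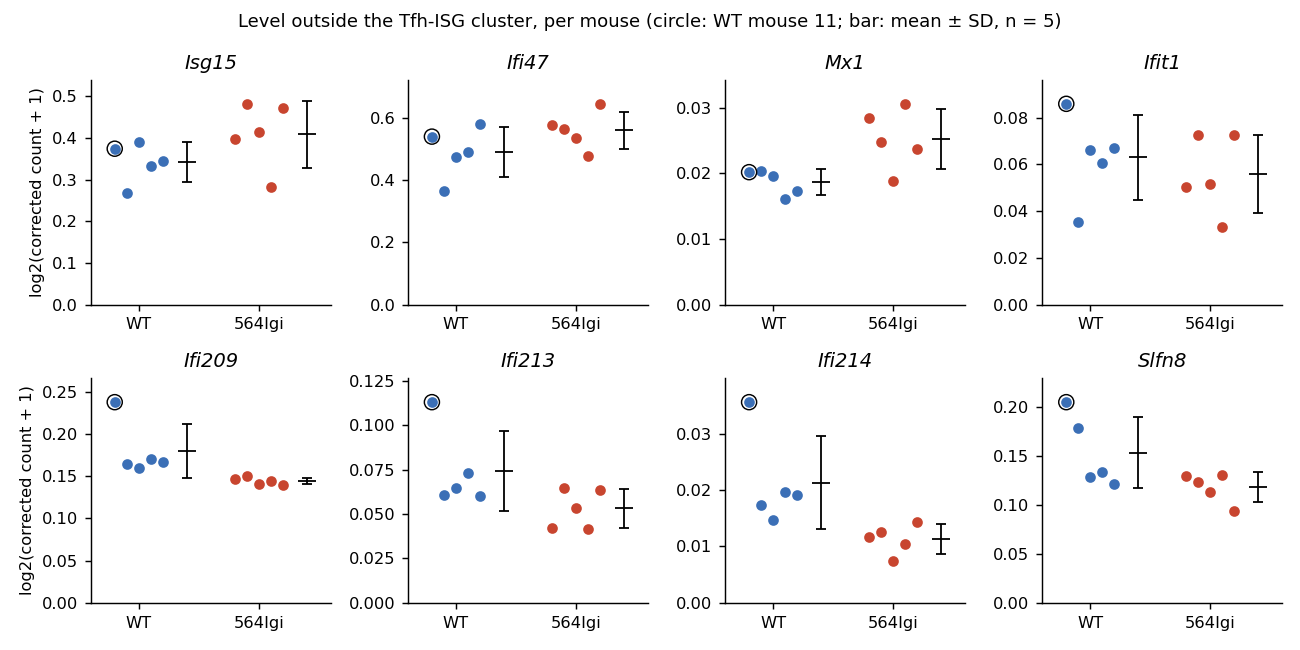
Log2 level outside Tfh-ISG of 8 members in each mouse (points; 5 WT, 5 564Igi; the black circle marks WT mouse 11), with mean and SD. *Ifi209* and *Ifi214* are the panels whose groups do not overlap, and mouse 11 is the highest WT point for *Ifit1*, the Ifi200 genes and *Slfn8*.

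Among the effectors, 2.41% of 564Igi cells held *Mx1*, against 1.80% in WT. Its log2 level was 0.020, 0.020, 0.020, 0.016 and 0.017 in WT mice 11, 12, 14, 23 and 36 and 0.028, 0.025, 0.019, 0.031 and 0.024 in 564Igi mice 13, 17, 21, 24 and 34, so only mouse 21 reached into the WT range. The difference was 0.0066 (standard error 0.0028, limma adjusted p = 0.9998). *Ifit1* and *Ifit3* differed by -0.0069 and -0.0021, with standard errors of 0.0090 and 0.0027, and *Isg20* by 0.05 with one of 0.02, or by 0.031 without 564Igi mouse 17 and 0.073 without 564Igi mouse 24. *Ifi27l2a* and *Shisa5* differed by 0.04 and -0.03, with standard errors of 0.12 and 0.08. With 1 mouse left out the first ranged from -0.031 without 564Igi mouse 17 to 0.11 without WT mouse 36, so its direction turned, and the second from -0.063 without 564Igi mouse 13 to -0.0085 without 564Igi mouse 24.

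*Isg15* had log2 levels of 0.37, 0.27, 0.39, 0.33 and 0.34 in WT and 0.40, 0.48, 0.41, 0.28 and 0.47 in 564Igi mice. All 564Igi mice except mouse 24 lay above all WT mice, and the mice with the lowest level in each group, 12 and 24, were also those of lowest depth. The difference was 0.07 (standard error 0.03, limma adjusted p = 0.9998, unadjusted p just above 0.05). The part of depth in it was not tested. The GTPases had a higher mean in 564Igi for 4 of 5 genes (*Ifi47*, *Igtp*, *Irgm1* and *Gbp2*), as did 38.4% of all genes. *Ifi47* had log2 levels of 0.54, 0.37, 0.47, 0.49 and 0.58 in WT and 0.58, 0.56, 0.54, 0.48 and 0.65 in 564Igi mice, which overlapped (difference 0.07, standard error 0.04, and 0.038 without WT mouse 12). *Zbp1* differed by 0.04, with a standard error of 0.02, and by 0.024 without WT mouse 12 or without 564Igi mouse 17.

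**Figure D3:**
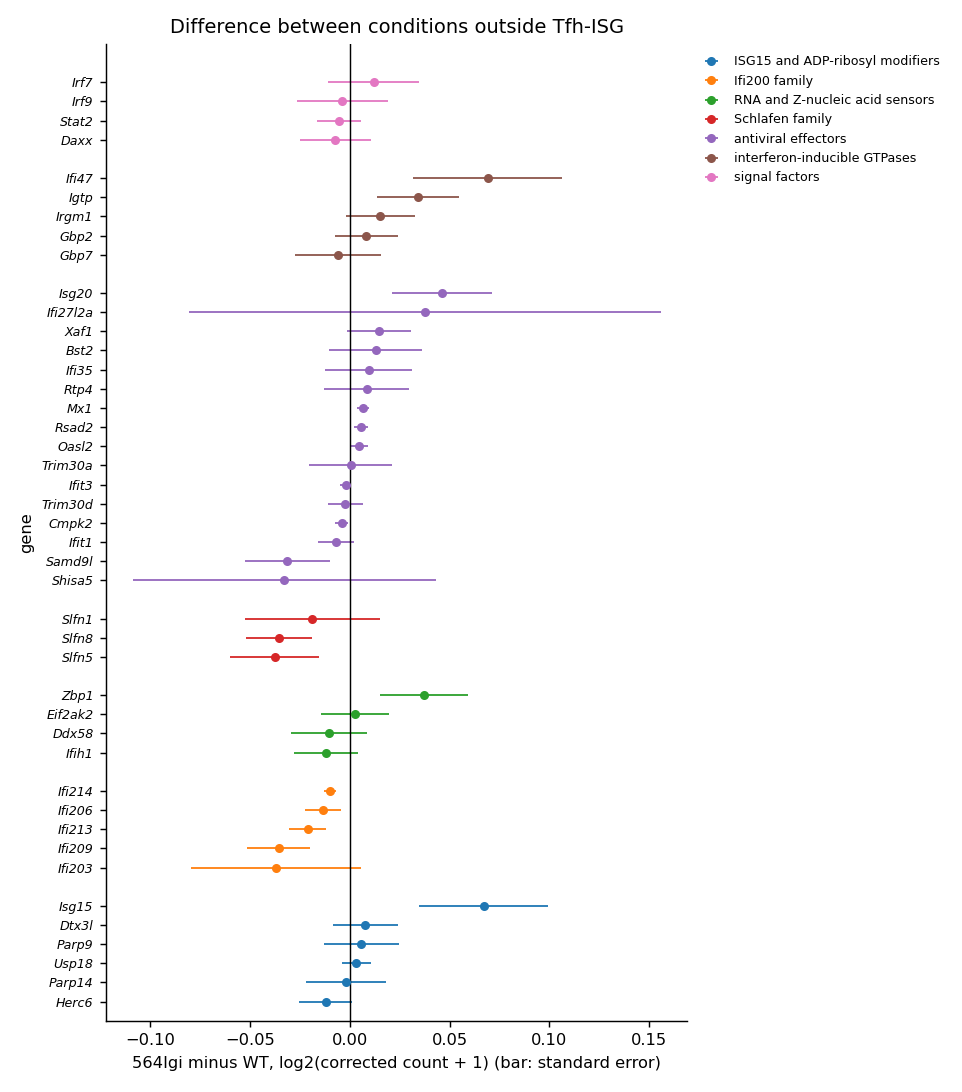
Difference in log2 level between 564Igi and WT outside Tfh-ISG for the 43 members tested, with its standard error, grouped by role. All 5 Ifi200 and all 3 Schlafen members lie left of 0, 4 of 5 GTPases lie right of it, and the other roles lie on both sides.

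Single mice moved the balance of the members, and that of all genes, not always the same way. Without WT mouse 11, which had the highest level outside Tfh-ISG for 21 of the 44 members, 32 of 43 members had a higher mean in 564Igi, as did 5124 of 10015 genes tested. Without WT mouse 12, 11 of 43 members had, as did 2715 of 10039 genes. Without WT mouse 23 the members higher fell to 18 while the genes higher rose to 4390 of 10029, and without 564Igi mouse 34 they were 17 and 4058 of 10053, against 21 and 3831 of 9973 with all mice. Mice 12 and 24 each had the lowest level for 14 members. Leaving out both gave 21 members higher, the same as with all mice, but 4873 of 10016 genes. Summed over the 42 members other than *Ifi27l2a* and *Shisa5*, which dominate the sum, the level was 28.2, 20.4, 22.6, 22.4 and 23.7 counts per 10000 in WT mice 11, 12, 14, 23 and 36. It was 23.9, 23.7, 21.7, 21.5 and 25.2 in 564Igi mice 13, 17, 21, 24 and 34, all inside the WT range. Other cells with 3 or more restricted genes made up 7.62% in mouse 11 and 3.1% to 4.15% in the other WT mice, against 2.45% to 5.04% in 564Igi mice.

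Within single clusters limma called 0 members. The count at an unadjusted p under 0.05 was 4 of 42 in Tfh-activated cells, where 3.99% of all genes passed, 6 of 42 in Tfr (3.5%), 1 of 41 in Sostdc1 (4.6%), 5 of 42 in Tfh-CM (7.57%), 2 of 42 in Tfh-effector (5.22%) and 3 of 44 in Tfh-ISG (4.2%). With 1 mouse left out it was 0 to 3 in Sostdc1, 3 to 6 in Tfh-CM and 1 to 5 in Tfh-effector cells. All genes at that limit then numbered 336 to 551, 571 to 1590 and 443 to 589. Before any mouse was left out they numbered 455, 784 and 503. In Tfh-CM the member count was 0 once mice with 10 or more cells were let in, and 504 of 9590 genes passed. All genes called numbered 1 of 9859 in Tfh-activated (0.0101%), 2 of 9994 in Tfr (0.02%), 2 of 9885 in Sostdc1 (0.0202%), 0 in Tfh-CM, 1 of 9637 in Tfh-effector (0.0104%) and 1 of 9419 in Tfh-ISG (0.0106%). In the Tfh-ISG cluster itself 15 members had a higher and 29 a lower mean in 564Igi, where 50.1% of all genes had a higher mean. The 3 at an unadjusted p under 0.05 were all lower (*Ifi209*, *Irf9* and *Slfn5*), as were 2.27% of all genes. This count was 0 without WT mouse 23, 1 without WT mouse 11, WT mouse 14 or 564Igi mouse 21, and 4 without WT mouse 36. All genes lower at that limit numbered 214 of 9419 before any mouse was left out. They were 217 of 9724, 196 of 9710, 238 of 9753, 166 of 9788 and 297 of 9730 in the same order. Once mice with 10 or more cells were let in, 1 member was lower and 1 higher at that limit. Of 9067 genes 234 were lower and 202 higher. Then 19 members and 4236 genes had a higher mean.

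In Tfr cells 28 of 42 members had a higher mean in 564Igi (41.9% of all genes did), and in Tfh-activated cells 17 of 42 (44.1%). In Tfr cells 5 members were higher at an unadjusted p under 0.05 (1.59% of all genes were): *Ifi47* by 0.11, *Isg15* by 0.09, *Igtp* and *Zbp1* by 0.06 each and *Mx1* by 0.0062, with standard errors of 0.04, 0.04, 0.03, 0.02 and 0.0029. *Ifi214* was lower at that limit (1.91%). The count of 5 was 0 without WT mouse 12 or without 564Igi mouse 34, and 9 without 564Igi mouse 24. For limma without the trend it was 1. All genes higher at that limit numbered 159 of 9994 with all mice. They were 101 of 10078, 168 of 10087, 313 of 10077 and 161 of 9994 in the same order. The 28 with a higher mean became 21 without WT mouse 12, while all genes went from 4187 of 9994 to 3405 of 10078. In Tfh-activated cells the 4 genes at an unadjusted p under 0.05 were *Isg20*, higher (2.09% of all genes), and *Ifi213*, *Ifi209* and *Slfn8*, lower (1.9%). The count of 4 was 11 without WT mouse 14 and 7 without WT mouse 36. All genes at that limit rose too, from 393 of 9859 to 575 of 9906 and 485 of 9949. The 17 with a higher mean became 25 of 42 without WT mouse 11 and 11 of 43 without WT mouse 12. All genes with a higher mean went from 4350 of 9859 to 5613 of 9923 and 3160 of 9943. With all mice, no adjusted p among members was below 0.956 in either cluster.

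The difference of these differences was tested on each mouse's Tfr minus Tfh-activated level. Limma called 0 of 9582 genes, and 701 (7.32%) had an unadjusted p under 0.05. Of 42 members 35 had a larger 564Igi minus WT difference in Tfr cells, against 47.6% of all genes. At an unadjusted p under 0.05 there were 6 members (*Bst2*, *Ddx58*, *Irf9*, *Igtp*, *Ifi213* and *Gbp2*), all larger in Tfr, against 3.17% of all genes in that direction, and 0 smaller in Tfr, against 4.14%. *Bst2* was higher in Tfr than in Tfh-activated cells by 0.03 ± 0.05 in WT and 0.10 ± 0.03 in 564Igi mice (SD, n = 5 each), a difference of 0.07 (limma adjusted p = 0.598). Leaving out 1 mouse gave 3 to 14 such members, 14 without WT mouse 14 and 3 without 564Igi mouse 13. All genes larger in Tfr at that limit moved the same way, from 304 of 9582 to 445 of 9633 and 225 of 9637. With all mice the lowest limma adjusted p of a member was 0.598. With 1 mouse left out the lowest was 0.0701, without WT mouse 14, so the difference between the clusters did not pass for any single gene.

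**Figure D4:**
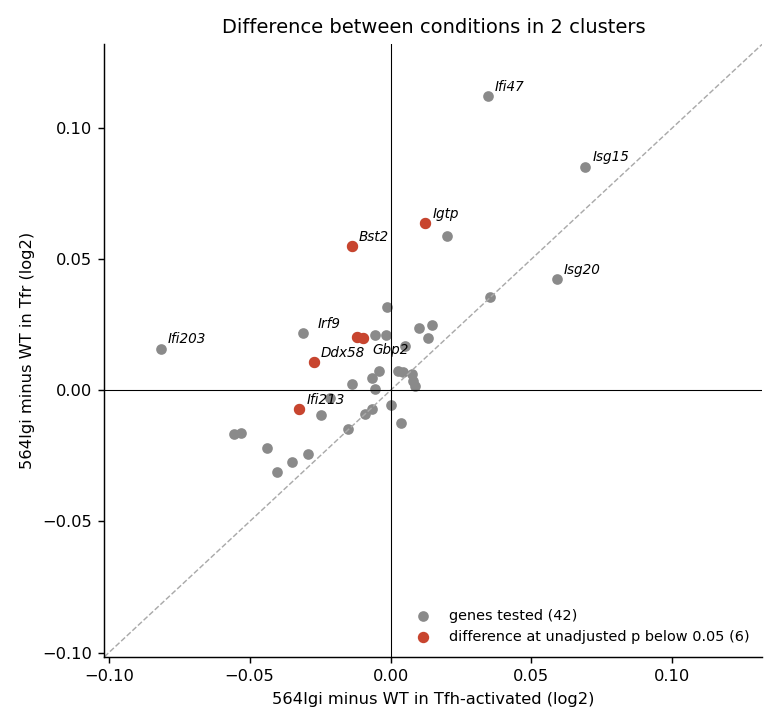
Difference in log2 level between 564Igi and WT in Tfh-activated cells (horizontal) and in Tfr cells (vertical) for 42 members, with the line of equality dashed. Points above the line, 35 of 42, have a larger difference in Tfr; red marks the 6 with an unadjusted p under 0.05 for that comparison, and both axes use the same mice.

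Other genes of the pathway were taken from 7 lists of 89 genes, of which 78 were in the matrix and 64 passed the filter. Outside Tfh-ISG limma called 0 of these. At an unadjusted p under 0.05 there were 9, all higher in 564Igi, among them *Ifng*, *Socs1*, *Socs3*, *Ly6a*, *Iigp1*, *Tgtp1*, *Tgtp2* and *Gbp6*, where 1.46% of all genes passed in that direction. The means of the 64 were split evenly, 32 higher and 32 lower, with a median of -0.00016. *Tgtp1* and *Tgtp2* are close copies, so their reads may be shared.

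*Ifng*, which encodes interferon-gamma, was seen in 11.5% of 564Igi cells, against 7.66% in WT. Its log2 level was 0.10, 0.04, 0.11, 0.11 and 0.10 in WT and 0.17, 0.10, 0.16, 0.15 and 0.13 in 564Igi mice, where mouse 17 alone lay inside the WT range. The difference was 0.05 (standard error 0.02, limma adjusted p = 0.849).

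The feedback inhibitor *Socs3* was the one gene of the 64 whose 564Igi mice lay above all WT mice (0.271% of all genes did). Its log2 level was 0.09, 0.04, 0.08, 0.09 and 0.09 in WT and 0.19, 0.12, 0.12, 0.09 and 0.16 in 564Igi mice, with mouse 24 only just above the highest WT mouse. The difference was 0.06 (standard error 0.02, limma adjusted p = 0.625). *Socs1* differed by 0.07 (standard error 0.03). *Ly6a*, which encodes the surface protein Sca-1, had log2 levels of 1.13, 0.84, 1.40, 1.29 and 1.34 in WT and 1.94, 1.40, 1.70, 1.86 and 1.81 in 564Igi mice. Mouse 17 lay just below the highest WT mouse, and the difference was 0.54 (standard error 0.11, limma adjusted p = 0.0736). In Tfr cells *Ly6a* was called (difference 0.85, limma adjusted p = 0.00162), but its adjusted p there was 0.0141 without WT mouse 11, 0.0219 without 564Igi mouse 24 and 0.495 for limma without the trend.

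Receptor subunits and most regulators differed by less than 2-fold between Tfh-ISG and other cells. Of 5 receptor genes 0 had a 2-fold higher count in Tfh-ISG, and *Ifnar2*, the one found in most cells, was seen in 33.0% of Tfh-ISG and 36.3% of other cells. All 5 had a lower mean in 564Igi outside Tfh-ISG (38.4% of all genes had a higher one), 0 of them at an unadjusted p under 0.05. The kinase gene *Jak1* was found in 70.8% of Tfh-ISG and 69.0% of other cells. Of the 6 interferon regulatory factors tested as pathway genes 0 reached a 2-fold higher count, *Irf2* being found in 62.9% and 49.2%. Of the 4 feedback genes *Socs1* reached it, at 49.9% and 31.5%. Of 11 sensors and adaptors 4 did, among them the RIG-I relative *Dhx58* at 48.2% and 5.01%. *Sting1*, the adaptor of cytosolic DNA sensing, was the one found in most cells, at 49.6% and 48.1%. Among 46 other interferon-inducible genes 44 were higher in Tfh-ISG and 24 had a fold of at least 4, with a median fold of 4.34. *Ly6e* was found in most cells, at 98.6% and 96.0%.

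Most genes of other cell types were found in few cells, but not all. The B cell list (4 of 5 genes in the matrix, *Cd22* the most abundant) summed to 0.215 to 0.309 counts per 10000 in the other cells of WT and 0.182 to 0.329 in those of 564Igi mice. Of the 9 myeloid genes, *Cst3* was found in 46.2% of Tfh-ISG cells and in 45.3% of WT and 45.4% of 564Igi cells outside, and the other 8, *Lyz2*, *Csf1r* and *C1qa* among them, in 0% of Tfh-ISG cells. WT mouse 14 stood apart. Its myeloid genes summed to 8.37 counts per 10000 in Tfh-ISG cells and 2.95 in its other cells. The 8.37 came from *Cst3* alone, since the other 8 genes were found in 0% of Tfh-ISG cells. In the other mice with at least 20 Tfh-ISG cells the sum in those cells was 1.37 to 1.96. Of the plasmacytoid dendritic cell genes, *Irf8* was found in 7.09% of Tfh-ISG cells, *Tcf4* in 1.39%, *Ccr9* in 0.490% and *Ly6d* in 0.184%, against 88.9% for *Bst2*, which those cells also express. The CD8 gene *Cd8b1* and the NK gene *Klrb1c* were found in 2.66% and 2.60% of Tfh-ISG cells, and in 4.74% and 3.94% of the other cells of the same mice.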

How the data were processed

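Splenic CD4+CXCR5+PD-1+ cells were captured on the 10x Genomics platform. The authors aligned reads to GRCm38 (mm10) with Cell Ranger 4.0.0 and, with Seurat 3.1.4, ran sctransform on each condition. They deposited the natural log of the corrected UMI count plus 1 per cell and gene, a table with each cell's cluster, raw UMI count and a heat shock score, which was used as the authors' value. Undoing the log gave whole counts for 100% of values above 0 (within 1e-06). No step to remove doublets is given in the sources used here beyond the authors' upper limit on genes per cell, and none was run. Groups came from the labels, and 0 columns were left out for lack of a label.

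Levels were means over a mouse's cells of log2(corrected count + 1), with mice as replicates. Conditions were compared with limma 3.58.1 (trend option, R 4.3.3), two-sided, over genes that 1% or more of the cells held in 5 or more mice (or in as many as the smaller group had), with Benjamini-Hochberg adjustment over all genes tested; mice needed 20 cells in a cluster. Genes were called at adjusted p under 0.01 and log2 change above 0.2. Mice 12 and 24 had under 20 Tfh-ISG cells, and mice 21 and 34 under 20 Tfh-CM cells, and were left out there. Folds are ratios of mean corrected counts, averaged as means per mouse. Nothing here separates animals from libraries, since each mouse gave 1 library.

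The members and lists, and the rules, were chosen with earlier results of these data known. Named in detail were the 10 largest and 5 smallest differences in Tfh-ISG, the 5 found in most other cells, the 5 largest differences between conditions in each direction, and all at an unadjusted p under 0.05 or without overlap. Pathway genes were named at an unadjusted p under 0.05 or as found in most cells. Tried were other filters, scales, pseudocounts, covariates, weights, cell minimums, thresholds and mice left out. The values of 1 pathway gene are not reported here.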

Additional observations from a re-analysis of the deposited data

Results flagged for a closer look

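In 8 of 52 groups of 5 mice examined, 1 mouse lay apart from the others by more than Dixon's 95% critical value of 0.71 (the gap to its nearest neighbour over the group's range), which chance gives in about 1 of 20 groups. All 8 were WT groups. The groups are not independent, so 8 of 52 cannot be set against that rate. Their genes were named for differences between conditions, and *Ifi213* and *Ifi214* also enter the restricted sum and share. WT mouse 11 was the high one in 5 of them: *Ifi209* (log2 level outside Tfh-ISG 0.24, next 0.17), *Ifi213* (0.11, next 0.073), *Ifi214* (0.036, next 0.020), the summed restricted genes (2.67 counts per 10000, next 1.94) and the share of other cells with 3 or more restricted genes (7.62%, next 4.15%). WT mouse 12 was the low one for *Ifng* (0.036, next 0.10) and *Socs3* (0.044, next 0.082). WT mouse 14 was the high one for *Tgtp1* (0.026, next 0.014).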

How the results depend on the processing

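No member was called in any of the 104 fits (lowest adjusted p 0.0701). Of 462 refits of 22 named genes outside Tfh-ISG, 456 kept their direction. These genes were named from the main fit for large differences, a low unadjusted p or groups without overlap. The refits share most of its mice, so a kept direction was likely beforehand. *Shisa5* turned to 0.012 without mice 12 and 24, a pair chosen after seeing the data, and with 1 mouse left out *Ifi203* ranged from -0.063 to 0.0096 and *Ifi27l2a* from -0.031 to 0.11. Genes called outside Tfh-ISG, 1 with all mice, numbered 0 for limma without the trend and without mice 12 and 24, 2 with log2 of the mean count per 10000 and with equal weights of 3 clusters, 7 at an adjusted p under 0.05 with no fold limit, and 1 to 2 with 1 mouse left out. Members at an unadjusted p under 0.05 numbered 1 without the trend and with equal weights, and 3 without the filter and over all cells. They numbered 7 with sex and 7 with the heat shock score as covariate. Without mice 34 and 36, whose libraries are numbered apart, they numbered 2, and with 1 mouse left out 2 to 9. All genes at that limit, 321 of 9973 with all mice, numbered 193 without the trend and 331 with equal weights. Without the filter they were 624 of 13798, and over all cells 318 of 9959. All genes numbered 435 with sex and 380 with the heat shock score. Without mice 34 and 36 they were 325 of 10033, and with 1 mouse left out 194 to 511. Without WT mouse 14, where 9 members passed, they were 476 of 10017. With 1 mouse left out members with a higher mean ranged from 11 to 32, and all genes from 2486 to 5922. Members lower without overlap numbered 3 with log2 of the mean count per 10000, 1 with cells scaled to 5000 counts and 0 with equal weights. With any 1 mouse left out they numbered 2. All genes lower without overlap, 17 of 9973 with all mice, were 59, 28, 24 and 21 to 97 in the same order. Members higher without overlap, 0 with all mice, numbered 1 without 564Igi mouse 21 and 2 without 564Igi mouse 24 or without mice 12 and 24. All genes higher without overlap rose too, from 27 of 9973 with all mice to 40 of 10034, 128 of 10057 and 138 of 10016. Within clusters, limma without the trend called 0 genes in Tfh-activated, Tfr, Sostdc1, Tfh-effector and Tfh-ISG cells. With 1 mouse left out 1 to 3 were called in these clusters and 0 to 9 in Tfh-CM. For the Tfr minus Tfh-activated comparison 3 to 14 members were then at an unadjusted p under 0.05 and 30 to 37 were larger in Tfr. All genes larger in Tfr at that limit then numbered 211 to 445. A limit of 5% of other cells gave 8 restricted genes, and 20% gave 27 restricted, 14 raised on a broad base and 2 in between. Folds of 3 and 1.5 left 0 broad. The causes were not tested. No paired analysis was possible because the 2 conditions share no mouse number. Depth limits genes found in few cells, such as *Ifit3b*, and the 379 Tfh-ISG cells limit comparisons within that cluster.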
